A study of Mus musculus with 12 samples.

Results

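The 42 genes described here were listed as a signature of hematopoietic stem cells outside the clustered Hox genes, apart from Hoxb5, which is on the list. They were taken by name, and all 42 were present in each of the 12 count files, among 23390 genes in all. Some of them were chosen by their counts in these libraries, for being lower in wild-type CMP than in wild-type LSK. RNA had been sequenced from bone marrow cells of C57BL/6 mice in 4 groups of 3 libraries. The groups were common myeloid progenitors (CMP) with the genotype Cebpa +42kb enhancer -/- and CMP with the wild-type enhancer, and the LSK fraction of the same 2 genotypes. Cebpa encodes a transcription factor that commits progenitors to granulocytes and monocytes, and the labels name no Cre driver for the enhancer deletion. LSK, which the labels also call hematopoietic stem cells, is a gate without lineage markers and with Sca-1 and Kit on the surface. It holds stem cells and a larger number of early progenitors. Replicates carry the label numbers 1, 2 and 7 in the enhancer-null groups and 1, 6 and 8 in the wild-type groups. Sex was assigned from the counts of Xist and Y-linked genes. Replicates 1 and 2 of the enhancer-null groups and replicate 1 of the wild-type groups were assigned male, and the others female. The genotypes were therefore not matched for sex. The labels do not say whether each number is a separate animal, so that p-values measure the spread between these libraries.

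Stem cells of the bone marrow divide rarely and keep the ability to rebuild all blood lineages. Hlf, Mecom and Prdm16 encode transcription factors that maintain them, and Procr, Esam and Fgd5 are used to tell them from the multipotent progenitors that share the LSK gate. Many stem cell genes are known to be switched off as cells enter the CMP stage. Because the libraries are bulk samples, fewer stem cells in the sorted fraction and less RNA per stem cell cannot be told apart in any of the values below.

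Levels are in CPM, the gene's reads relative to the library total. They were scaled by TMM over the 12 libraries and not by gene length, and are therefore compared between groups and not between genes. Total gene counts ran from 8976999 to 20122669 in enhancer-null CMP, from 15470260 to 32770938 in wild-type CMP, from 6170491 to 49149674 in enhancer-null LSK and from 14753266 to 34080293 in wild-type LSK. Cebpa was counted 0, 3 and 0 times in enhancer-null CMP and 544, 270 and 463 times in wild-type CMP. It was counted 1, 0 and 15 times in enhancer-null LSK and 226, 118 and 39 times in wild-type LSK. The genes of the LSK gate fitted the labels, since Ly6a, which encodes Sca-1, had 142 to 196 CPM in the enhancer-null and 134 to 175 CPM in the wild-type LSK libraries, and at 12.9 CPM or less in every CMP library. Kit had 649 to 796 CPM in the enhancer-null and 734 to 895 CPM in the wild-type LSK libraries. Libraries differed in drop-out. Genes averaging 10 CPM or more were missed in 3.57% of cases by enhancer-null CMP replicate 1, in 1.83% by wild-type LSK replicate 6 and in 1.55% by enhancer-null CMP replicate 7, against 0.882% or less for the other 9. Enhancer-null LSK replicate 2 was the shallowest library, where 3 counts correspond to 0.486 CPM, and 17 of the 42 genes had no count there. Enhancer-null LSK replicate 7 was the deepest of all, and 2 of the 42 had none. Mmrn1, a multimerin of platelets and endothelium, had no count in any library.

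**Figure D1:**
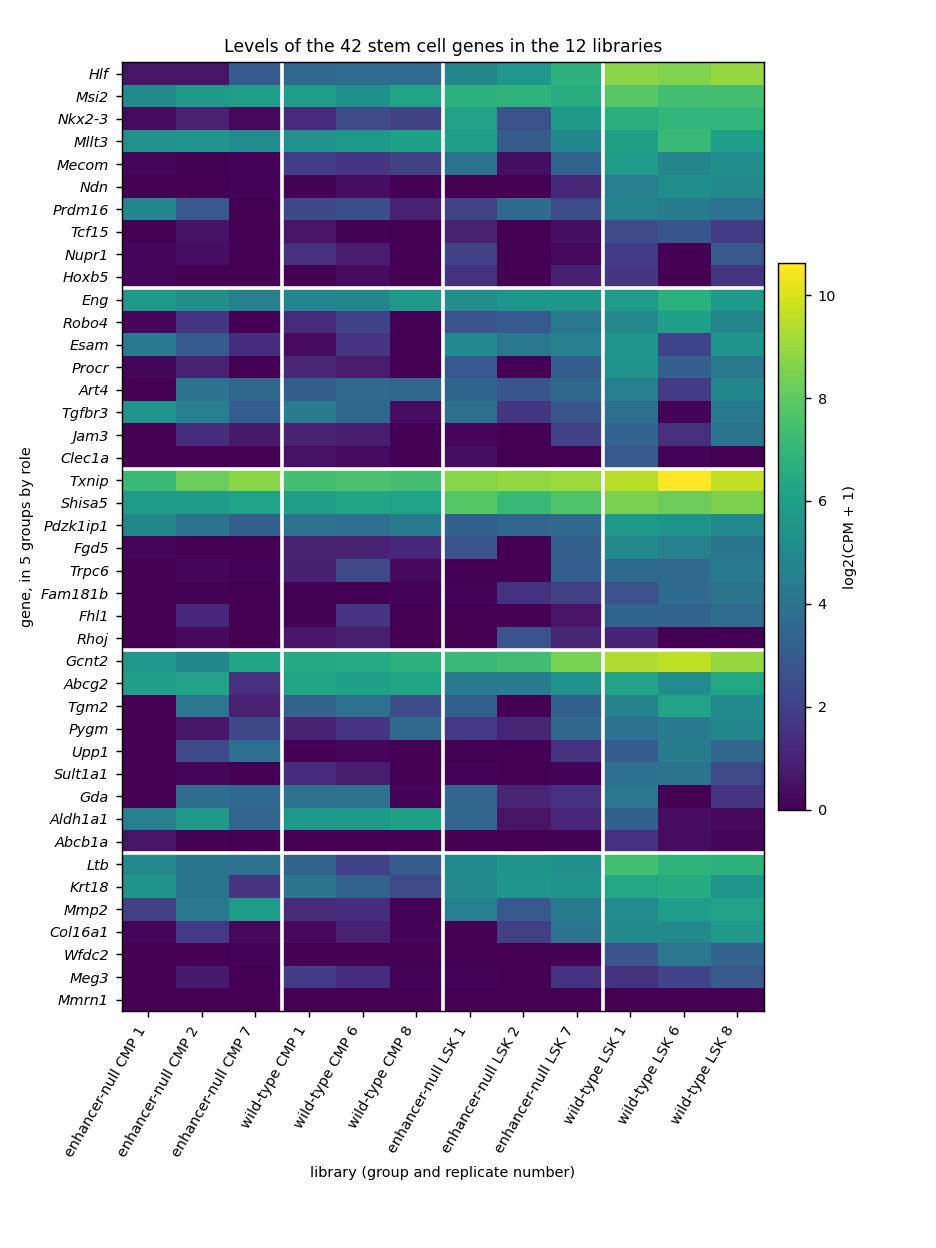
Level of each of the 42 genes (rows, in 5 groups by role) in each of the 12 libraries (columns), as log2(CPM + 1). The 3 wild-type LSK columns on the right are the brightest for most genes, while Abcg2 and Aldh1a1 are as bright or brighter in wild-type CMP.

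Enhancer-null LSK was compared with wild-type LSK to see whether the listed genes differed in the fraction upstream of CMP. For 28 of the 42 genes all 3 enhancer-null libraries were below all 3 wild-type libraries, and for 0 they were all above. Of the 11623 genes tested, 10.6% were lower in this way and 8.48% higher, and of all genes with a count 8.04% were lower and 6.29% higher. The 28 included Hlf, with means of 63.2 ± 42.6 CPM in enhancer-null LSK and 435 ± 47.7 CPM in wild-type LSK, Ndn at 0.43 ± 0.744 and 29.9 ± 6.34 CPM, and Ltb at 38.3 ± 6.1 and 131 ± 29.8 CPM (SD, n = 3 each). No single member passed the quasi-likelihood test of edgeR after Benjamini-Hochberg adjustment over all genes, 0 of 39 tested, where 0.103% of all genes passed. The smallest adjusted p was 0.112, that of Ltb. At an unadjusted p under 0.05 there were 15 members, all lower, against 7.92% of all genes, and DESeq2 called 11, all lower. The wild-type LSK libraries also served to choose some members for being high there, and such a choice favours lower values in the group set against them. The median log2 fold change of the 39 tested members was -1.75, and that of all genes tested was -0.00975.

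The deepest enhancer-null LSK library, replicate 7, was by itself below all 3 wild-type LSK libraries for 29 of the 42 genes, against 20.4% of all genes tested. Mean levels in enhancer-null LSK were under 10% of those in wild-type LSK for 8 genes, 10% to 50% for 23 and 50% or more for 10, with Mmrn1 at 0 in both. The count of 28 was 28 to 33 when 1 library at a time was left out, and edgeR called 1 member, Hlf, without enhancer-null replicate 7.

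**Figure D2:**
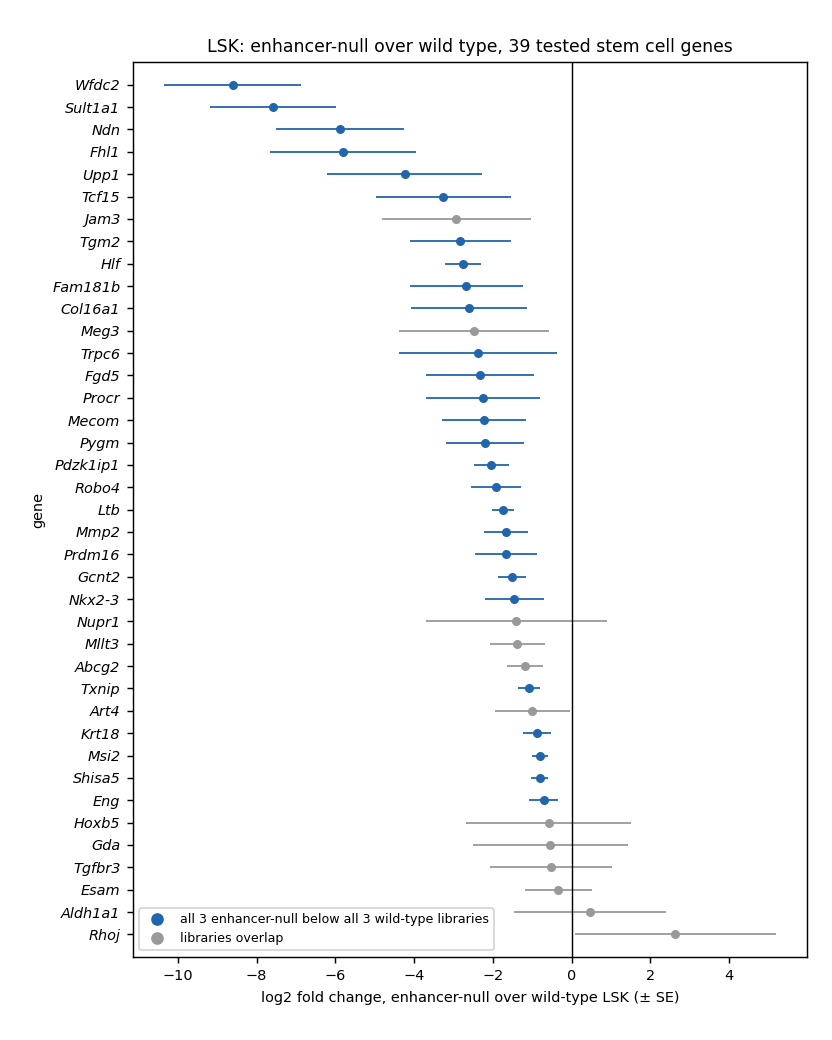
Log2 fold change of the 39 tested genes, enhancer-null over wild-type LSK, with standard errors (edgeR, n = 3 libraries per group). Blue points mark the genes whose 3 enhancer-null libraries were all below the 3 wild-type ones, and the estimates run from -8.61 for Wfdc2 to 2.64 for Rhoj, with 37 of 39 below 0.

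Among 10 transcription and RNA regulators, 7 had enhancer-null LSK libraries that were all below the wild-type ones. Hlf (ENSMUSG00000003949.16, mm10 chr11:90336536-90390895, minus strand) encodes a PAR bZIP factor that restrains stem cell differentiation. Its level was 29.3, 49.3 and 111 CPM in replicates 1, 2 and 7 of enhancer-null LSK, and 432, 389 and 485 CPM in wild-type LSK replicates 1, 6 and 8. The highest enhancer-null library was thus well under the lowest wild-type library (log2 fold change -2.75, SE 0.46, edgeR adjusted p = 0.113, lower in 3 of 3 libraries). Nkx2-3 (chr19:43612325-43615892, plus strand), a homeobox factor, was at 71.9, 5.28 and 50.5 CPM in enhancer-null LSK and 99.1, 129 and 131 CPM in wild-type LSK. The enhancer-null libraries differed among themselves for this gene, with replicate 2 far under the other two. Mecom (chr3:29951296-30548008, minus strand), the zinc finger factor also called Evi1, showed the same unevenness, at 15, 0.32 and 9.84 CPM in enhancer-null LSK against 57.4, 27.1 and 37.0 CPM in wild-type LSK.

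Prdm16, a PR-domain zinc finger factor needed for stem cell maintenance, was at 3.57, 11.4 and 4.42 CPM in enhancer-null LSK and 26.1, 21.6 and 14.9 CPM in wild-type LSK. Ndn (chr7:62346569-62350262, plus strand) encodes necdin, an imprinted growth suppressor linked to stem cell quiescence. It had 0, 0 and 65 counts in enhancer-null LSK, or 0, 0 and 1.29 CPM, against 23.2, 35.8 and 30.6 CPM in wild-type LSK. All 3 wild-type levels were far over the 0.486 CPM that 3 counts make in the shallowest library (log2 fold change -5.89, SE 1.63, adjusted p = 0.381). Msi2, an RNA-binding protein of stem cell self-renewal, had the narrower difference of 109, 119 and 97.8 CPM in enhancer-null LSK against 232, 173 and 179 CPM in wild-type LSK. Mllt3, a reader of acylated histones, overlapped, at 64.3, 7.84 and 29.1 CPM in enhancer-null and 64.7, 143 and 62.5 CPM in wild-type LSK. Tcf15, a helix-loop-helix factor of quiescent stem cells, was at 0.987, 0 and 0.337 CPM in enhancer-null and 4.52, 6.17 and 2.69 CPM in wild-type LSK. Hoxb5 and the stress protein gene Nupr1 overlapped and had no count in enhancer-null replicate 2 and in wild-type replicate 6.

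Promoters are shown for Hlf, Nkx2-3 and Gcnt2, which were lower in the enhancer-null libraries of both cell types, for Pdzk1ip1, which was lower in LSK, and for Aldh1a1, the member with the opposite course in wild-type cells. Each is the stretch of 250 bases that ends before a RefSeq start site (build GRCm38.p6), read 5′ to 3′ on the gene's strand, and overlaps no exon of the GENCODE annotation. Capitals mark the letters of a motif: CAGCTG, the E-box of the Tal1 type, in Pdzk1ip1; TTGCNNAA, letters of a C/EBP site, in Aldh1a1; and TTACNNAA, letters of a PAR bZIP site such as that of Hlf, in Gcnt2. The Hlf and Nkx2-3 stretches hold none of the 6 motifs searched. The windows lie at chr11:90390918-90391167, minus strand; chr19:43612075-43612324, plus strand; chr13:40886508-40886757, plus strand; chr4:115088458-115088707, plus strand; and chr19:20492333-20492582, plus strand.
Hlf promoter: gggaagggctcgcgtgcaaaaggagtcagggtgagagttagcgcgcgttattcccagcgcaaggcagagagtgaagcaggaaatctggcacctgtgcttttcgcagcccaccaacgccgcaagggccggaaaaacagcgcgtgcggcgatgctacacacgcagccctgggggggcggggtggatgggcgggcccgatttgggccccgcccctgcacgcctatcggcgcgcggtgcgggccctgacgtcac
Nkx2-3 promoter: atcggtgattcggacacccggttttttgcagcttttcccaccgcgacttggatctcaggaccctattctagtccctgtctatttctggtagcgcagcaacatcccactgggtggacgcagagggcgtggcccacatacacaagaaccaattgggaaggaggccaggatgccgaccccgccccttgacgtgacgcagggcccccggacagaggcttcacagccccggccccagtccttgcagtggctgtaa
Gcnt2 promoter: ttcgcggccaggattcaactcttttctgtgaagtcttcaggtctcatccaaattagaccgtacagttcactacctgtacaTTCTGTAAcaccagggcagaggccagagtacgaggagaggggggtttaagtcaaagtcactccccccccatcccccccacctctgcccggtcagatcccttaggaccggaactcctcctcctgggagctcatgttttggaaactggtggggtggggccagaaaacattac
Pdzk1ip1 promoter: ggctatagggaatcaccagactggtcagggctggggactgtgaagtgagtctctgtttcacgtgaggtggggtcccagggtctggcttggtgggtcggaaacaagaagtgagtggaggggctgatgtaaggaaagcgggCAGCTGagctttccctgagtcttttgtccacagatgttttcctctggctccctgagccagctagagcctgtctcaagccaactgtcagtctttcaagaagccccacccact
Aldh1a1 promoter: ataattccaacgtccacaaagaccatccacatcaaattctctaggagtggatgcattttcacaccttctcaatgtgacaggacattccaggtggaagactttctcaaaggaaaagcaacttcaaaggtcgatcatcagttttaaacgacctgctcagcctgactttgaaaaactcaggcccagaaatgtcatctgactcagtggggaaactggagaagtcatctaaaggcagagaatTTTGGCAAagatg

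RefSeq windows were found for 34 of the 42 genes, 52 windows in all, and each motif was searched on both strands of the same stretch before every start site. CAGCTG stood in 15 of the 52 windows (28.8%, 12 genes) and in 13% of 32851 windows of all genes. TTGCNNAA stood in 5 member windows (9.62%) against 9.56% of all, and TTACNNAA in 5 (9.62%) against 8.09%. TGTGGT, letters of a RUNX site, was in 8 (15.4%) against 14%. AGATAA, of a GATA site, was in 2 (3.85%) against 9.99%, and CCGGAAGT, of an ETS site, in 0 against 2.88%. Windows of a gene can overlap, and TTGCNNAA and TTACNNAA can share bases. A match is a run of letters and was not tested as a site.

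Of 8 surface receptors and adhesion proteins, 3 were lower in all 3 enhancer-null LSK libraries and 5 overlapped. Procr (chr2:155751117-155755471, plus strand), the endothelial protein C receptor that marks the most potent stem cells, was at 6.61, 0 and 7.68 CPM in enhancer-null LSK and 43.2, 8.55 and 18.2 CPM in wild-type LSK. Wild-type replicate 6 came close to the enhancer-null libraries (log2 fold change -2.26, SE 1.44). Robo4, a guidance receptor that anchors stem cells in the marrow, was at 5.85, 7.04 and 18.2 CPM in enhancer-null and 31.1, 62.2 and 27.6 CPM in wild-type LSK. Eng, a co-receptor of TGF-beta, stood at 35.5, 46.7 and 48.5 against 57.6, 109 and 51.3 CPM. Esam, an immunoglobulin-type adhesion protein, did not separate, at 31.4, 17.3 and 23.4 CPM in enhancer-null LSK and 45.0, 3.43 and 44.3 CPM in wild-type LSK. Jam3, Tgfbr3 and Art4 were likewise lowest, within the wild type, in replicate 6, the wild-type LSK library with the most drop-out. Clec1a, a C-type lectin, was above 1 CPM in wild-type LSK replicate 1 only, at 6.83 CPM.

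All but Rhoj of the 8 signalling proteins, channels and adaptors were lower in all 3 enhancer-null LSK libraries. Fgd5 (chr6:91978878-92076004, plus strand), an exchange factor of Cdc42 whose expression marks stem cells, was at 5.54, 0 and 8.55 CPM in enhancer-null LSK and 32.4, 23.8 and 16.6 CPM in wild-type LSK. Pdzk1ip1 (chr4:115088708-115093899, plus strand), a small membrane protein, had closely spaced enhancer-null values of 8.81, 10.1 and 11.3 CPM, against 50.9, 43.9 and 32.3 CPM in wild-type LSK. Its log2 fold change was -2.04 (SE 0.45, adjusted p = 0.226). Txnip, the thioredoxin inhibitor that limits glucose uptake and proliferation, was at 428, 482 and 518 CPM in enhancer-null LSK and 721, 1568 and 796 CPM in wild-type LSK. Shisa5, a p53-responsive membrane protein, was at 225, 139.9 and 204 CPM in enhancer-null and 351, 296 and 369.9 CPM in wild-type LSK. Trpc6, a cation channel, was at 0, 0 and 8.13 CPM in enhancer-null LSK and 11.9, 11.8 and 20.1 CPM in wild-type LSK, and Fhl1, a LIM protein, at 0, 0 and 0.456 against 9.75, 9.53 and 12.4 CPM. For Trpc6 the difference therefore rested more on replicates 1 and 2 than on the deepest library.

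The efflux pumps and enzymes were divided, with 6 of 9 lower in all 3 enhancer-null LSK libraries. Abcb1a, 1 of these 6, had 0, 0 and 2 counts in enhancer-null and 69, 4 and 2 counts in wild-type LSK. It was near the floor and was not tested. Gcnt2 (chr13:40859754-40960892, plus strand), which builds branched sugar chains of the I blood group, was at 142, 162 and 356 CPM in enhancer-null LSK and 644, 777 and 504 CPM in wild-type LSK. These ranges did not meet (log2 fold change -1.51, SE 0.36, adjusted p = 0.281). Sult1a1, a sulfotransferase, had 4 counts over the 3 enhancer-null libraries and 779 over the 3 wild-type libraries. Scaled for depth, the wild-type sum was 208 times the enhancer-null sum (95% counting interval 80.9 to 765). Abcg2, the pump behind the side population phenotype, overlapped at 19.2, 21.9 and 40.6 CPM in enhancer-null LSK and 72.5, 35 and 81.3 CPM in wild-type LSK. Aldh1a1, a retinaldehyde dehydrogenase often used as a stem cell marker, was low in LSK of both genotypes, at 10.7, 0.48 and 1.33 CPM in enhancer-null and 8.67, 0.28 and 0.188 CPM in wild-type LSK. Upp1, a uridine phosphorylase, was at 0, 0 and 1.88 CPM in enhancer-null and 7.42, 20.8 and 10.5 CPM in wild-type LSK, and Tgm2, a transglutaminase, at 8.96, 0 and 8.97 against 26.3, 73.0 and 32.2 CPM.

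Of the 7 secreted and matrix proteins, filaments and non-coding RNAs, 5 were lower in all 3 enhancer-null LSK libraries. Ltb (chr17:35194439-35196320, plus strand), a membrane-bound cytokine of the tumor necrosis factor family, was at 31.7, 43.8 and 39.2 CPM in enhancer-null LSK and 166, 116 and 112 CPM in wild-type LSK. The gap between the groups was wide beside the spread within each (log2 fold change -1.75, SE 0.28, adjusted p = 0.112, lower in 3 of 3 libraries). Wfdc2, a secreted protease inhibitor, had 2 counts in the enhancer-null and 592 in the wild-type libraries, a depth-scaled ratio, wild type over enhancer-null, of 316 (95% counting interval 87.1 to 2620). Mmp2, the gelatinase A of the matrix, was at 23.1, 6.56 and 19.6 CPM in enhancer-null and 33.4, 58.5 and 69.2 CPM in wild-type LSK. Col16a1, a collagen chain, stood at 0, 3.04 and 15.5 CPM against 31.1 to 52.8 CPM, and Krt18, a keratin, at 30.8, 46.4 and 41.3 CPM against 48.3 to 94.1 CPM. Meg3, an imprinted long non-coding RNA, overlapped, at 0.0759, 0 and 1.96 CPM in enhancer-null and 1.96, 3.36 and 6.77 CPM in wild-type LSK.

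**Figure D3:**
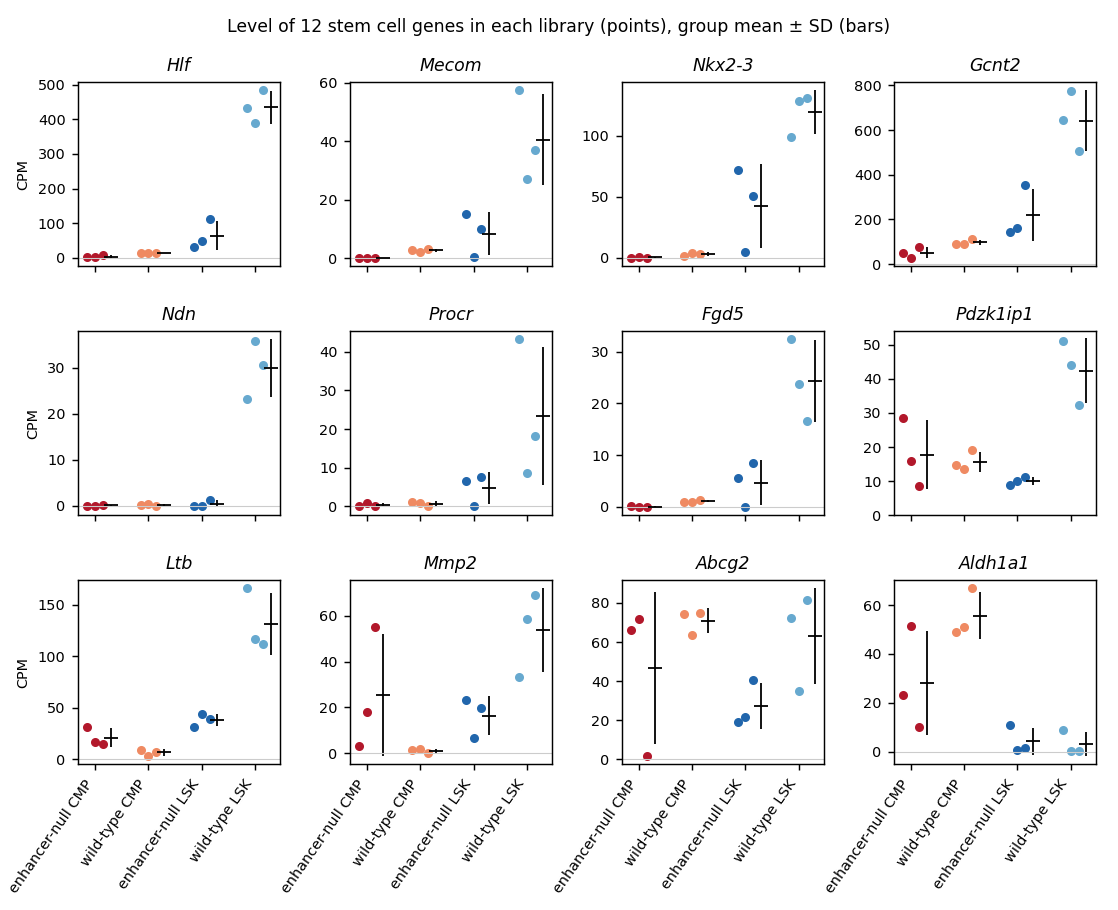
Level in CPM of 12 of the genes in each library (points) by group, with the group mean and SD (bars, n = 3). Hlf, Ndn and Ltb separate enhancer-null from wild-type LSK, Mmp2 and Ltb are higher in enhancer-null than in wild-type CMP, and Aldh1a1 is highest in wild-type CMP.

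The CMP of the 2 genotypes were compared next, at levels that were low for most members. These fractions also differed in surface marker genes. In enhancer-null and wild-type CMP, Cd34 was at 277 to 469 and 754 to 893 CPM, and Flt3 at 24.3 to 96.9 and 343 to 599 CPM. Fcgr3 was at 18.7 to 21.8 and 0.264 to 8.39 CPM, and Kit at 480 to 723 and 255 to 431 CPM. Ly6a and Cd48 overlapped. The part of this in the results was not tested. All 3 enhancer-null CMP libraries were below the wild-type ones for 6 of the 42 genes, against 12.6% of the 11726 genes tested, and above them for 2, against 11.1%. Of all genes with a count in CMP, 9.52% were lower and 6.88% higher. Members chosen for low wild-type CMP levels make higher values in enhancer-null CMP more likely, so the 2 higher genes are given as values and support nothing further. No member passed edgeR's test, 0 of 27 tested, where 0.588% of all genes passed, and 4 had an unadjusted p under 0.05, against 12.6% of all genes. DESeq2 called 1, Mmp2. Without wild-type CMP replicate 8 the lower count was 12, against 18.3% of all genes, and the higher count was 7 without enhancer-null CMP replicate 7 (16.6%) and 4 without enhancer-null CMP replicate 1 (17.5%). The 6 lower genes were Hlf, Mecom, Nkx2-3, Fgd5, Trpc6 and Gcnt2, and all 6 were among the 28 that were lower in LSK. The share of all genes lower in both cell types was not taken, so nothing is read from that overlap. Trpc6 rested on few counts, with 0, 3 and 1 in enhancer-null CMP and 29, 73 and 3 in wild-type CMP. Both comparisons have their own libraries, but the numbers 1, 2, 7, 6 and 8 recur in CMP and LSK.

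Hlf was at 0.465, 0.493 and 7.5 CPM in enhancer-null CMP and 11.8, 12.9 and 13.1 CPM in wild-type CMP. Mecom was at 0.116, 0.0493 and 0.062 CPM, 1 count in each library, against 2.86, 2.07 and 3.1 CPM in wild-type CMP. Scaled for depth, the wild-type sum was 40.5 times the enhancer-null sum (95% counting interval 13.6 to 198), and edgeR gave a log2 fold change of -5.08 (SE 1.63, adjusted p = 0.261). Gcnt2 was at 49.1, 28.3 and 75.7 CPM in enhancer-null CMP and 88.3, 91.5 and 111 CPM in wild-type CMP, the best measured of the 6 at this stage.

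Mmp2 and Ltb went the other way in CMP. Mmp2 (chr8:92827291-92853420, plus strand) was at 3.26, 18.0 and 55.2 CPM in enhancer-null CMP and 1.51, 1.62 and 0.0659 CPM in wild-type CMP (log2 fold change 4.56, SE 1.52, adjusted p = 0.278), so that the enhancer-null libraries spread widely. Ltb was at 31.6, 16.5 and 14.7 CPM in enhancer-null and 9.46, 3.3 and 7.45 CPM in wild-type CMP (log2 fold change 1.63, SE 0.82, adjusted p = 0.491). Upp1 was at 0, 4.04 and 13.9 CPM in enhancer-null CMP and 0, 0.112 and 0 CPM in wild-type CMP. Abcg2 was at 66.1, 71.8 and 1.74 CPM in enhancer-null and 74.6, 63.5 and 74.8 CPM in wild-type CMP, where only enhancer-null replicate 7 stood apart. The same library had no count of Prdm16, which was at 30.0 and 6.31 CPM in enhancer-null CMP replicates 1 and 2 and at 3.86, 5.09 and 0.989 CPM in wild-type CMP. Procr, Tcf15 and Hoxb5 were at 1.23 CPM or less in every CMP library.

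Within the enhancer-null animals, CMP was compared with LSK, using no library from which members had been chosen. For 10 of the 42 genes all 3 CMP libraries were below all 3 LSK libraries, against 8.46% of the 11270 genes tested, and for 0 they were above, against 8.39%. Of all genes with a count in these libraries, 6.4% were lower and 6.13% higher. The 10 were Hlf, Mecom, Nkx2-3, Robo4, Gcnt2, Shisa5, Txnip, Msi2, Fam181b and Ltb. No gene passed edgeR's test in this comparison, 0% of all genes and 0 of 25 tested members. At an unadjusted p under 0.05 there were 5 members, all lower in CMP, against 6.92% of all genes, and DESeq2 called the same 5, Hlf, Nkx2-3, Gcnt2, Shisa5 and Msi2.

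Shisa5 had the smallest p, at 55.7, 57.8 and 70.6 CPM in enhancer-null CMP and 225, 139.9 and 204 CPM in enhancer-null LSK (log2 fold change -1.65, SE 0.26, adjusted p = 0.188, lower in 3 of 3 libraries). Nkx2-3 was at 0.233, 0.985 and 0.186 CPM in enhancer-null CMP, against the 5.28 to 71.9 CPM of enhancer-null LSK given above (log2 fold change -6.45, SE 1.32, adjusted p = 0.305). Msi2 was at 32.2, 52.9 and 59.0 CPM in enhancer-null CMP and 97.8 to 119 CPM in enhancer-null LSK. Txnip was at 143, 298 and 419 CPM in enhancer-null CMP, each below the 428 to 518 CPM of enhancer-null LSK. Of the 25 tested members 15 had a negative and 10 a positive log2 fold change (median -0.75, against -0.00762 for all genes tested). The median was -0.23 without LSK replicate 7 and -1.26 without CMP replicate 2. Genes above in CMP, 0 with all libraries, numbered 5 without CMP replicate 7, 3 without CMP replicate 1 and 3 without LSK replicate 1, against 13.6%, 15.1% and 11.6% of all genes.

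The wild-type step from LSK to CMP is given as a description, because it served to choose members. All 3 wild-type CMP libraries were below all 3 wild-type LSK libraries for 29 of the 42 genes, against 17% of the 12031 genes tested, and above them for 1, against 16.4%. These counts follow from the choice of members and nothing is read from them. The list was not uniform. Aldh1a1 was at 49.0, 51.1 and 66.9 CPM in wild-type CMP and at 8.67, 0.28 and 0.188 CPM in wild-type LSK, and was the 1 member with all 3 CMP libraries above all 3 LSK libraries. Abcg2 was at 63.5 to 74.8 CPM in wild-type CMP and 35 to 81.3 CPM in wild-type LSK, so the groups overlapped. Eng, at 27.9, 29.2 and 52.9 CPM in wild-type CMP and 57.6, 109 and 51.3 CPM in wild-type LSK, and Mllt3, at 40.2, 49.2 and 67.3 CPM against 64.7, 143 and 62.5 CPM, overlapped as well.

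All 10 genes that were lower in CMP than in LSK of enhancer-null animals were among these 29. The other 19 overlapped between enhancer-null CMP and LSK, Ndn, Procr, Fgd5, Prdm16, Pdzk1ip1 and Mmp2 among them. Pdzk1ip1 was at 28.6, 16 and 8.68 CPM in enhancer-null CMP and 8.81 to 11.3 CPM in enhancer-null LSK, while it was at 14.6, 13.5 and 19.1 CPM in wild-type CMP and 32.3 to 50.9 CPM in wild-type LSK. Whether the step differed between the genotypes was not tested, since that test contains the wild-type step.

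**Figure D4:**
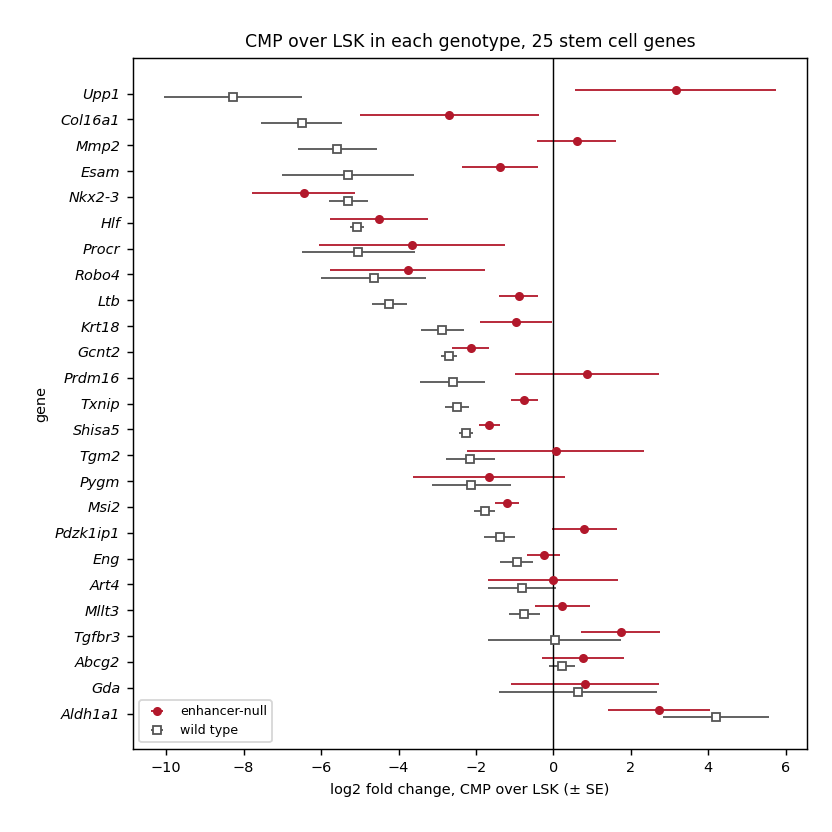
Log2 fold change of CMP over LSK with standard errors in enhancer-null (red) and wild-type animals (open squares), for the 25 genes measured in both (edgeR, n = 3 libraries per group). Estimates for Hlf, Nkx2-3 and Gcnt2 are below 0 in both genotypes, those of Upp1, Mmp2, Prdm16 and Pdzk1ip1 are above 0 in enhancer-null and below 0 in wild-type animals, and Aldh1a1 is above 0 in both.

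Other genes of the stem and early progenitor state were examined as a list of 38 that holds no member. In LSK 9 of them were lower in all 3 enhancer-null libraries and 7 were higher, against 10.6% and 8.48% of all genes tested. The median log2 fold change of the 37 tested was -0.03. The 7 higher genes were Slamf1, Cd48, Runx1, Gfi1b, Cdkn1a, Ifitm1 and Thy1. Slamf1 was at 27.9, 2.4 and 2.48 CPM in enhancer-null and 0.938, 0 and 2.13 CPM in wild-type LSK (log2 fold change 3.44, SE 1.92, edgeR adjusted p = 0.698). Lmo2, an adaptor of blood transcription factor complexes, fell to 345, 297 and 408 CPM in the enhancer-null libraries, against 1069, 1066 and 1093 CPM in the wild-type libraries (log2 fold change -1.59, SE 0.13, edgeR adjusted p = 0.0128). Cd48, a surface protein of multipotent progenitors, rose to 283 ± 10.1 CPM, against 113 ± 12 (SD, n = 3; adjusted p = 0.0436). Both calls depended on single libraries. With 1 library left out, Lmo2 stayed past the threshold only without enhancer-null replicate 7 or wild-type replicate 6. Cd48 did so only without wild-type replicate 6. The edgeR adjusted p reached 0.144 for Lmo2 and 0.274 for Cd48. With sex as a covariate neither passed (edgeR adjusted p = 0.0544 for Lmo2 and 0.207 for Cd48). With DESeq2 size factors in edgeR the adjusted p of Cd48 was 0.0552. In CMP 5 of the 38 were lower and 16 higher in all enhancer-null libraries, against 12.6% and 11.1% of all genes tested. Angpt1 and Ifitm1 rose past the threshold, and the median of the 35 tested was 0.68. Ifitm1 stayed past it without any 1 library, while Angpt1 (adjusted p = 0.0244) reached 0.0542 without enhancer-null replicate 7 and 0.0645, 0.141 and 0.181 without wild-type replicates 1, 6 and 8. With sex as a covariate Ifitm1 passed (edgeR adjusted p = 0.0109) and Angpt1 did not (0.0512). In the enhancer-null step from LSK to CMP 13 were lower and 5 higher, against 8.46% and 8.39% of all genes tested, and 0 of 37 tested passed.

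Ndn and Meg3 are imprinted, and 17 further imprinted genes were listed, of which 6 could be tested in LSK. In LSK 4 of the 17 were lower in all 3 enhancer-null libraries and 1 was higher, with 0 past the test. Of all genes tested, 10.6% were lower in this way and 8.48% higher. Grb10, an adaptor that dampens growth factor signalling, was at 0.228, 0 and 1.57 CPM in enhancer-null LSK and 39.1, 50.3 and 25.9 CPM in wild-type LSK (log2 fold change -5.81, SE 1.27, adjusted p = 0.23). Sgce was at 4.1, 5.28 and 5.34 CPM in enhancer-null and 20.5, 24.8 and 29.0 CPM in wild-type LSK. Cdkn1c, the inhibitor p57 that keeps stem cells quiescent, was at 11.3, 10.2 and 5.75 CPM against 15.9, 15.6 and 18.5 CPM. H19 ran opposite, at 8.43, 0.8 and 1.01 CPM in enhancer-null LSK, with no count in wild-type LSK. These genes were named after their values were seen.

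Markers of other cells were summed per library. In LSK the late neutrophil sum (8 genes) was 7.14 to 26.7 CPM in enhancer-null and 125 to 1330 CPM in wild-type libraries. The T and NK cell sum (8 genes) was 345 to 395 CPM in enhancer-null and 156 to 222 CPM in wild-type LSK, carried by Nkg7 and Lck, while the T cell receptor chain genes Cd3e, Cd3d and Cd3g were at 0.711 CPM or less in every LSK library. Endothelial cells express Esam, Eng, Procr, Robo4, Fgd5 and Tgm2 too. The endothelial sum (12 genes) was 297 to 343 CPM in enhancer-null and 295 to 363 CPM in wild-type LSK, carried mostly by Pecam1 and Egfl7. Pecam1 was at 124, 155 and 144 CPM in enhancer-null and 74.7, 130 and 69.1 CPM in wild-type LSK. Tie1 was at 27.0, 17.3 and 25.2 against 78.6, 32.7 and 69.6 CPM. Cdh5, which defines endothelium, was at 0 in the enhancer-null and at 0.228 CPM or less in the wild-type LSK libraries. The stromal sum (8 genes) was 0 to 20.7 CPM and 1.33 to 4.26 CPM in the same groups. The B cell sum was 42.1 to 55 and 48.1 to 87.4 CPM, the erythroid sum 14.0 to 56.5 and 2.52 to 71.1 CPM, and the mast cell and basophil sum (8 genes, Kit among them) 1120 to 1560 and 937 to 1220 CPM. Within that sum Cpa3, the mast cell carboxypeptidase, rose to 552, 577 and 298 CPM in enhancer-null LSK, against 4.89, 13.2 and 5.95 CPM in wild-type LSK (log2 fold change 5.94, edgeR adjusted p = 0.0128, and up to 0.135 when 1 library was left out). It also rose in enhancer-null CMP, to 908 to 1350 CPM against 29.7 to 64.3 CPM in wild-type CMP (log2 fold change 4.74, edgeR adjusted p = 0.00424, and 0.0527 without wild-type CMP replicate 8). Itga2b, an integrin of megakaryocytes and early progenitors, rose to 117 to 128 CPM in enhancer-null LSK, against 30.1 to 32.9 CPM in wild-type LSK (edgeR adjusted p = 0.0433, and up to 0.274 when 1 library was left out). In LSK the Cpa3 call was lost without enhancer-null replicates 1 or 2 or wild-type replicates 1 or 8, and the Itga2b call without any library but wild-type replicate 6. Both LSK calls were also lost with sex as a covariate (edgeR adjusted p = 0.0648 for Cpa3 and 0.207 for Itga2b). Itga2b had 0.0766 in the edgeR fit over all 4 groups. The Cpa3 call in CMP was kept with sex as a covariate (edgeR adjusted p = 0.0109). In CMP the late neutrophil sum was 3.84 to 27.4 CPM in enhancer-null and 26.4 to 2080 CPM in wild-type libraries. In the same libraries the mast cell and basophil sum was 1870 to 2280 and 444 to 556 CPM, and the T and NK cell sum 249 to 488 and 74.2 to 159 CPM. The stromal sum was 4.04 to 17.2 CPM in enhancer-null and 0.857 to 3.69 CPM in wild-type CMP. In enhancer-null CMP replicates 1, 2 and 7, Col1a2 was at 17.1, 0.148 and 0 CPM and Cxcl12 at 0, 3.4 and 9.86 CPM. Mmp2 was at 3.26, 18.0 and 55.2 CPM there, and Col1a1, Col3a1, Pdgfra and Lum had no count. The part of these differences in the results for the stem cell genes was not tested.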

How the data were processed

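Per the labels' protocols, total RNA was extracted with a carrier, amplified as cDNA and read from both ends. Each library has a file of raw counts by gene symbol, which the authors deposited. The submitters' processing notes name mm10, TopHat2 (2.0.4), TopHat, Bowtie and HTSeq. Annotation, counting mode and use of strand are not given there. Without strand, reads of 12 of the 42 genes whose exons overlap a gene on the opposite strand (Mecom, Prdm16, Eng, Tgm2, Sult1a1, Gcnt2, Abcb1a, Hoxb5, Txnip, Fam181b, Jam3 and Meg3) cannot be told from that gene's. Reads of Aldh1a1 and Abcb1a may be shared with close paralogs. Rows that name no gene held 37.2% to 46.9% of counts and were left out. Because 1 file, that of wild-type CMP replicate 6, held 23456 symbols and each of the rest 24420, files were joined on 22779 identical symbols and 611 older names linked by RefSeq (GRCm38.p6). Per library 0.0674% to 0.291% of gene counts were not joined.

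The test was edgeR's (4.0.16, under R 4.3.3; robust quasi-likelihood fit, TMM, expression filter with a minimum count of 10) on the 2 groups compared, with Benjamini-Hochberg adjustment over all genes tested at a threshold of 0.05. The standard error was the log2 fold change divided by the root of F. DESeq2 1.42.0 was an alternative. The pipeline was tested on simulated data. Levels are TMM-scaled CPM. Intervals are exact and cover counting error only, since the reads carry no molecular identifiers. No pair of replicates agreed within sampling noise (chi-square per degree of freedom 43 to 183). Gene positions are from GENCODE M21 on mm10.

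The members and lists were chosen with earlier results of these data known. Values in every library were to be given for members past the threshold, for the best known markers and for the member with the smallest p in each role group. Others were named after their values were seen. Of the other lists, 1 gene past the threshold and a marker sum that it carries are not reported here.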

Additional observations from a re-analysis of the deposited data

Results flagged for a closer look

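The genotype difference of Mmp2 and Ltb ran in opposite directions in the 2 cell types, with no overlap of libraries in either. All 3 enhancer-null CMP libraries were above, and all 3 enhancer-null LSK libraries below, the wild-type libraries of the same cell type. The log2 fold change in CMP minus that in LSK was 6.23 for Mmp2 and 3.38 for Ltb. Neither difference was tested, because it contains the wild-type step from LSK to CMP that helped to choose members. That choice favours lower values in enhancer-null LSK and higher values in enhancer-null CMP, so nothing further is read from the pattern.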

How the results depend on the processing

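DESeq2 called 11 in LSK, 1 in CMP and 5 in the enhancer-null step, 1 fit over all 4 groups called 3 in that step, and no filter on low counts called 2 in LSK, Hlf and Ltb. Leaving out 1 library gave 0 to 1 in LSK, the 1 being Hlf without enhancer-null replicate 7, and 0 to 0 in CMP and in the step. DESeq2 size factors in edgeR, identical symbols only and sex as a covariate gave 0 in each comparison. Over all genes DESeq2 called 204 in the step, 272 in LSK and 631 in CMP, against 0, 12 and 69 by edgeR, no filter called 9, 39 and 270, and the fit over all 4 groups 37, 26 and 232, and sex as a covariate 0, 3 and 31. The adjusted p ran from 6.62e-09 to 0.49 for Hlf, from 4.8e-06 to 0.433 for Ltb and from 0.000606 to 0.843 for Ndn in LSK, from 7.88e-06 to 0.705 for Shisa5 in the step, and from 0.00915 to 0.655 for Mmp2 in CMP. Among single members with an unadjusted p under 0.05, 270 alternative values kept the direction and side of the threshold, 23 passed it in the same direction and none reversed. The 270 include Fgd5 in CMP by DESeq2, which gave it no adjusted p, so that only its direction was kept. Median log2 fold changes without 1 library ran from -2.06 to -1.57 in LSK, -0.833 to -0.118 in CMP and -1.26 to -0.233 in the step.

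The counts of members without overlap were taken again with settings chosen after seeing the data. Library size alone and DESeq2 size factors gave counts within 1.5 times the reported ones. Without 1 library, where the criterion is looser, LSK had 28 to 33 lower and 0 to 1 higher, CMP 6 to 12 lower and 2 to 7 higher, and the step 10 to 14 lower and 0 to 5 higher. Over all genes with a count, 8.04% were lower in LSK. Same-numbered CMP and LSK libraries of the enhancer-null groups did not deviate together (correlations 0.0773, -0.0192 and 0.00951). In wild type the correlations were 0.139, -0.102 and 0.0194. Same-numbered libraries had the same assigned sex. Whether they come from 1 animal is not in the labels, and these values cannot decide it. With the replicate block the step had 0 members past the threshold and a median of -1.05, and the genotype comparisons share number 1 alone, which allows no block. Depth limits genes at 0 in enhancer-null LSK replicate 2, where a count of 0 allows a level of up to 0.486 CPM (3 counts).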
